A study of Mus musculus with 44 samples.

Results

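A group of 10 interferon-induced antiviral genes was measured in mouse nucleus accumbens with and without virally expressed RXRa, a ligand-dependent transcription factor of the nuclear receptor family. The genes were chosen by name: Ifit1, Ifit2, Ifit3, Oas1a, Oas1b, Oas2, Oas3, Oasl1, Oasl2 and Rsad2. Symbols were matched to Ensembl identifiers, and 10 of 10 were found among the 55487 gene identifiers of 2 count tables. One table holds bulk tissue of males that received HSV-GFP (4 libraries) or HSV-RXRa-GFP (4 libraries), herpes simplex virus vectors carrying GFP alone or RXRa with GFP. The other holds sorted D1 and D2 nuclei, the names in use for striatal projection neurons that express the dopamine receptors Drd1 and Drd2. These animals received AAV9-CAG-DIO-EGFP or AAV9-CAG-DIO-EGFP-P2A-RXRa, adeno-associated virus vectors with the broadly active CAG promoter and an insert that Cre recombinase switches on. The sorted groups were D1 female (5 EGFP, 4 RXRa libraries), D1 male (5 and 4), D2 female (4 and 4) and D2 male (5 and 4). All groups thus carried a virus and a fluorescent protein, and no group without virus was analysed here. Age, mouse line, the interval after infusion and pooling of animals are not given in the sources used here, so p-values measure the spread between these libraries, which may be technical.

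Type I interferon binds a cell-surface receptor, and the Jak kinases then activate transcription factors, which bind interferon-stimulated response elements in promoters of antiviral genes. IFIT proteins recognise viral RNA ends and block translation. OAS enzymes sense double-stranded RNA and make 2-5A oligonucleotides, which act as a signal of infection. OASL proteins are relatives of OAS enzymes, and Oasl1 limits production of the interferon regulator Irf7. Viperin, encoded by Rsad2, is a radical SAM enzyme that turns CTP into a chain-terminating nucleotide.

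The 10 genes lie on 3 chromosomes of GRCm38, with positions from GENCODE M21. The IFIT genes form a cluster on chromosome 19, with Ifit2 at chr19:34550694-34576419, Ifit3 at chr19:34583531-34588731 and Ifit1 at chr19:34640871-34650009, all on the plus strand. The OAS cluster on chromosome 5 holds Oas2 at chr5:120730333-120749853, Oas3 at chr5:120753098-120777661 and Oas1a at chr5:120896256-120907521, on the minus strand. Oas1b lies between Oas3 and Oas1a at chr5:120812635-120824163 on the plus strand, and the annotation types it as a polymorphic pseudogene. The OASL genes lie apart on the same chromosome, Oasl2 at chr5:114896936-114912234 and Oasl1 at chr5:114923240-114937915, both on the plus strand. Rsad2 is at chr12:26442746-26456452 on the minus strand, beside Cmpk2.

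Promoter sequence of RefSeq (GRCm38.p6, 250 bases before to 50 after the start) was matched for 8 of the 10 genes, all but Oas1b and Oas2. The core of the interferon-stimulated response element, GAAANNGAAA on either strand, was found in 1131 of 32851 promoters of this length (3.44%) and in promoters of 5 of these genes. The stretches below hold those matches, with the matched bases in capitals and each sequence read 5′ to 3′ on the strand of its gene. TTTCNNTTTC is the same core on the opposite strand. The 2 overlapping matches of Oas1a run together.
Ifit1, chr19:34640689-34640888, plus strand: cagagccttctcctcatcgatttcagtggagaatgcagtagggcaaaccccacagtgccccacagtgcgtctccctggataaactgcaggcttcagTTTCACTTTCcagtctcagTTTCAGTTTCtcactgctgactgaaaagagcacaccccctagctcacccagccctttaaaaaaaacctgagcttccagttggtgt
Ifit3, chr19:34583359-34583428, plus strand: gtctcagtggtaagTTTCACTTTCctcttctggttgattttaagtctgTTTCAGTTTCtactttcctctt
Rsad2, chr12:26456533-26456592, minus strand: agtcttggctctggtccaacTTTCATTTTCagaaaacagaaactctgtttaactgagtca
Oas1a, chr5:120907526-120907585, minus strand: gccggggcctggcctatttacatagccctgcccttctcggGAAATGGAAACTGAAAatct
Oas3, chr5:120777710-120777769, minus strand: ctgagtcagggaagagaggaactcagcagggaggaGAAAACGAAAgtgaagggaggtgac

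Ifit1 and Ifit3 share the same pair of matched cores. In Ifit1 these begin 104 and 85 bases before the start, and in Ifit3 156 and 122 bases before it. Those of Oas1a begin 20 and 14 bases before the start, that of Oas3 75 and that of Rsad2 120. No match was in the windows of Ifit2, Oasl1 and Oasl2. A shorter form, GAAANNGAA, which overlaps the core, was in 8.56% of all promoters and in the same 5 genes. The nuclear receptor half-site AGGTCA was in 16.3% of all promoters and in 2 of the 8 matched genes, 244 bases before the start of Oas3 and 195 before that of Oasl1.

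The vector's codon-altered RXRa sequence separated the groups. It had 0 counts in the 4 bulk GFP libraries and 22.1 to 37.7 CPM (counts per 1000000 of the scaled library size) in the 4 bulk RXRa libraries. In the 19 sorted EGFP libraries it reached at most 0.877 CPM, against 43.4 to 710 CPM in the 16 sorted RXRa libraries. Vector GFP in bulk was 28.4 to 61.3 CPM with GFP and 36.03 to 65.5 CPM with RXRa. Library totals were 21567565 to 29167142 counts in bulk and 12211655 to 27757463 in the sorted table. The shallowest library, D1 male EGFP library 2, also stood apart from its group: chi-square divided by its degrees of freedom was 55.1 to 63.6 in its 4 pairs, against 1.79 to 7.83 in the other 6 pairs of that group. Without it, 0 of the 10 genes were called in each comparison that includes its group, as with it. The summed level of 3 D2 markers (Drd2, Adora2a, Penk) was 743 to 2683 CPM in D2 libraries and 87.1 to 344 CPM in D1 libraries. The D1 markers (Drd1, Tac1, Pdyn) separated the populations less. Their sum was 78.6 to 212 CPM in D1 libraries and 28.1 to 127 CPM in D2 libraries, which overlap.

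In bulk accumbens the 10 antiviral genes were higher with RXRa in every one of the 4 libraries than in any GFP library. Fold changes ran from 2.07 for Ifit3 to 2.92 for Oas3. All 10 were called higher at an adjusted p under 0.05 (edgeR's quasi-likelihood test, Benjamini-Hochberg over 18579 genes), where 3.01% of all genes tested were called higher. Their groups did not overlap, which held in the same direction for 6.64% of all genes tested. The median log2 fold change of the 10 was 1.37, beside -0.02 over all genes tested.

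**Figure D1:**
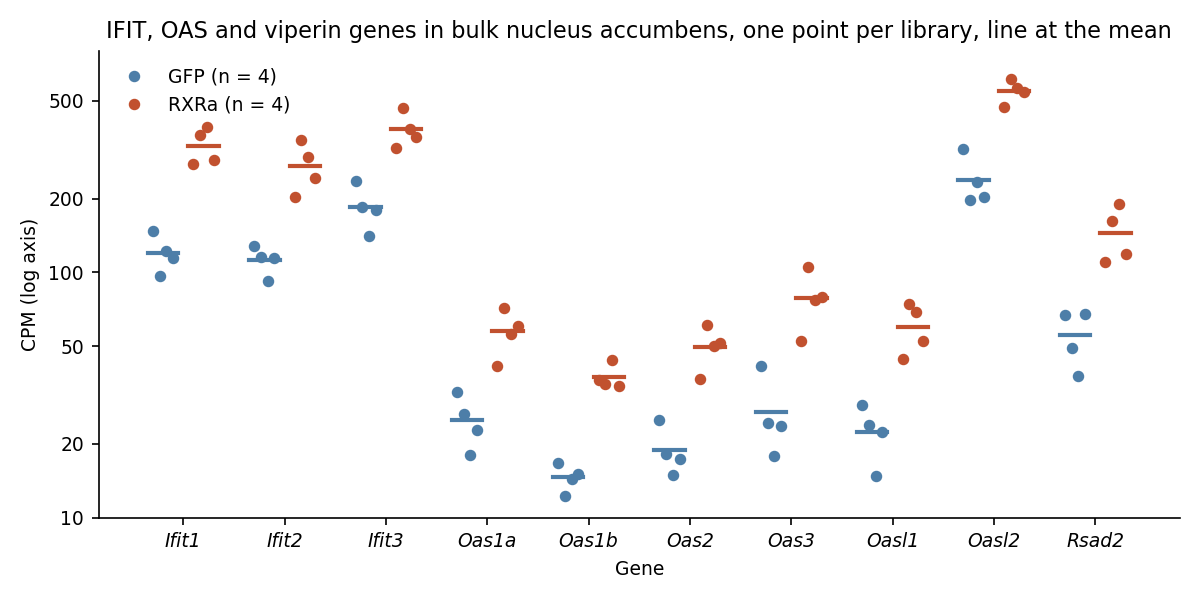
CPM (log axis) of the 10 genes in bulk nucleus accumbens, one point per library and a line at the group mean. For each gene the 4 RXRa libraries lie above the 4 GFP libraries, as for Ifit1 with 276 to 390 against 96.5 to 148 CPM.

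Ifit1, which binds RNA whose cap lacks methylation, was at 148, 96.5, 122 and 115 CPM in GFP libraries 1 to 4 and at 276, 361, 390 and 288 CPM in RXRa libraries 1 to 4. Every RXRa value was above the highest GFP value, and the log2 fold change was 1.45 (SE 0.15, edgeR adjusted p = 0.00688). Ifit2, which is linked to apoptosis as well as to blocked translation, was at 128, 115, 91.9 and 115 CPM with GFP and 203, 347, 296 and 243 CPM with RXRa. The spread among RXRa libraries was wider than among GFP libraries, and the log2 fold change was 1.28 (SE 0.16, edgeR adjusted p = 0.00901).

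Ifit3 was at 235, 184, 141 and 180 CPM with GFP and 320, 468, 385 and 357 CPM with RXRa. The change, 1.05 in log2 (SE 0.16, edgeR adjusted p = 0.0132), was the smallest of the 10. The near-identical copy Ifit3b may share reads with it, so both values are uncertain.

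Among the OAS enzymes, Oas1a was at 32.4, 26.4, 17.99 and 22.9 CPM with GFP and 41.6, 71.9, 56.3 and 60.6 CPM with RXRa. GFP library 1 and RXRa library 1 came closest to each other, and the log2 fold change was 1.21 (SE 0.20, edgeR adjusted p = 0.0163). The similar copy Oas1g may share its reads. Oas1b, whose full-length form is known for resistance to flaviviruses in mice, was at 16.8, 12.3, 14.4 and 15.1 CPM with GFP and 36.4, 35.02, 44.0 and 34.6 CPM with RXRa. It had the smallest standard error of the 10, with a log2 change of 1.36 (SE 0.11, edgeR adjusted p = 0.00499).

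Oas2, an OAS enzyme with duplicated catalytic units, was at 25.01, 18.3, 14.95 and 17.4 CPM with GFP and 36.8, 60.8, 50.3 and 51.7 CPM with RXRa. The log2 fold change was 1.40 (SE 0.18, edgeR adjusted p = 0.00905), and reads of Gm43068, which overlaps Oas2 on the opposite strand, may be counted with it. Oas3, the largest OAS enzyme, was at 41.6, 24.4, 17.8 and 23.7 CPM with GFP and 52.5, 105, 77.0 and 79.6 CPM with RXRa. It had both the largest change and the widest spread of the 10, with a log2 change of 1.55 (SE 0.27, edgeR adjusted p = 0.0208).

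Oasl1 was at 28.8, 23.8, 14.8 and 22.3 CPM with GFP and 44.5, 74.1, 69.0 and 52.7 CPM with RXRa. Its log2 fold change was 1.42 (SE 0.21, edgeR adjusted p = 0.0132), and the antisense gene Gm13822 overlaps it. Oasl2, which in mice keeps an active enzyme domain, was at 318, 198, 234 and 203 CPM with GFP and 474, 617, 565 and 545 CPM with RXRa. Its log2 fold change was 1.21 (SE 0.15, edgeR adjusted p = 0.00900).

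Rsad2 was at 67.1, 49.3, 37.9 and 67.9 CPM with GFP and 110, 162, 191 and 119 CPM with RXRa. GFP libraries 1 and 4 were the high ones and RXRa libraries 2 and 3 the high ones on the other side. The log2 fold change was 1.39 (SE 0.22, edgeR adjusted p = 0.0155).

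The genes moved together within each group too. GFP library 1 was the highest GFP library for 9 of the 10 genes and GFP library 3 the lowest for 7. RXRa library 2 was the highest RXRa library for 7 genes and RXRa library 1 the lowest for 9. Beyond the 10, the genes whose log2 CPM followed their joint pattern most closely over the 8 bulk libraries were Dhx58 (Pearson r 0.999), Trim26 (0.997), Dtx3l (0.997), Isg20 (0.996) and Ifi44 (0.995). These correlations are a description over libraries that differ by vector and share their totals.

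Per kb of exon, the order of levels in GFP libraries was Ifit3 (106 CPM per kb), Ifit1 (45.3), Oasl2 (37.4), Ifit2 (28.7), Oas1a (13.2), Rsad2 (12.8), Oasl1 (8.60), Oas1b (7.35), Oas2 (4.25) and Oas3 (3.80). Among neighbours in this order, libraries did not overlap for Ifit3 and Ifit1, for Ifit2 and Oas1a, and for Oas1b and Oas2. The other neighbours were within each other's spread. With RXRa the order was kept except that Rsad2 (33.5 CPM per kb) stood above Oas1a (30.6), whose libraries overlapped. Oas3 thus had the lowest level per kb and the largest fold change of the 10.

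The direction held while the calls depended on single libraries. All 10 log2 fold changes were above 0 under each alternative run. Without GFP library 4, 1 of the 10 (Oas1b) was called, and 9 genes of the whole table. The lowest count over the other libraries left out singly was 7 of 10.

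Relatives of the 10 genes were measured beside them. Of 9 paralogues, 5 passed the filter on low counts and 4 of these rose. Ifit1bl1, a relative of Ifit1 in the same cluster, was at 8.63, 7.20, 6.37 and 8.52 CPM with GFP and 22.3, 41.7, 36.5 and 32.6 CPM with RXRa. The log2 change, 2.11 (SE 0.19, edgeR adjusted p = 0.00499), was above those of all 10 genes. Ifit3b (1.01), Oas1g (1.32) and Oas1c (0.86) also rose, while Ifit1bl2 had a log2 fold change of 0.93 that did not pass (SE 0.23, edgeR adjusted p = 0.0639). Oas1d, Oas1e, Oas1f and Oas1h did not pass the filter and reached at most 0.729 CPM in any bulk library.

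The genes that act with the 10 divided. Of the 6 reported here, 2 rose: Eif2ak2 (PKR, a kinase that halts translation on double-stranded RNA) by 1.03 and Cmpk2 (a nucleotide kinase that supplies CTP, the substrate of viperin) by 0.79 on the log2 scale. Eif2ak2 was at 78.3, 52.1, 65.9 and 60.4 CPM with GFP and 101, 160, 142 and 121 CPM with RXRa, with no overlap (SE 0.16, edgeR adjusted p = 0.0132). Cmpk2 was at 106, 87.1, 90.6 and 102 CPM with GFP and 130, 209, 188 and 141 CPM with RXRa (SE 0.15, edgeR adjusted p = 0.0248). Adar, an RNA-editing enzyme, had a log2 fold change of 0.22 that did not pass (SE 0.07, edgeR adjusted p = 0.0970). Abce1, a ribosome recycling factor, Pde12, which degrades 2-5A, and Ciao1, which inserts iron-sulfur clusters, had values of -0.03, -0.06 and -0.02, none of which passed.

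**Figure D2:**
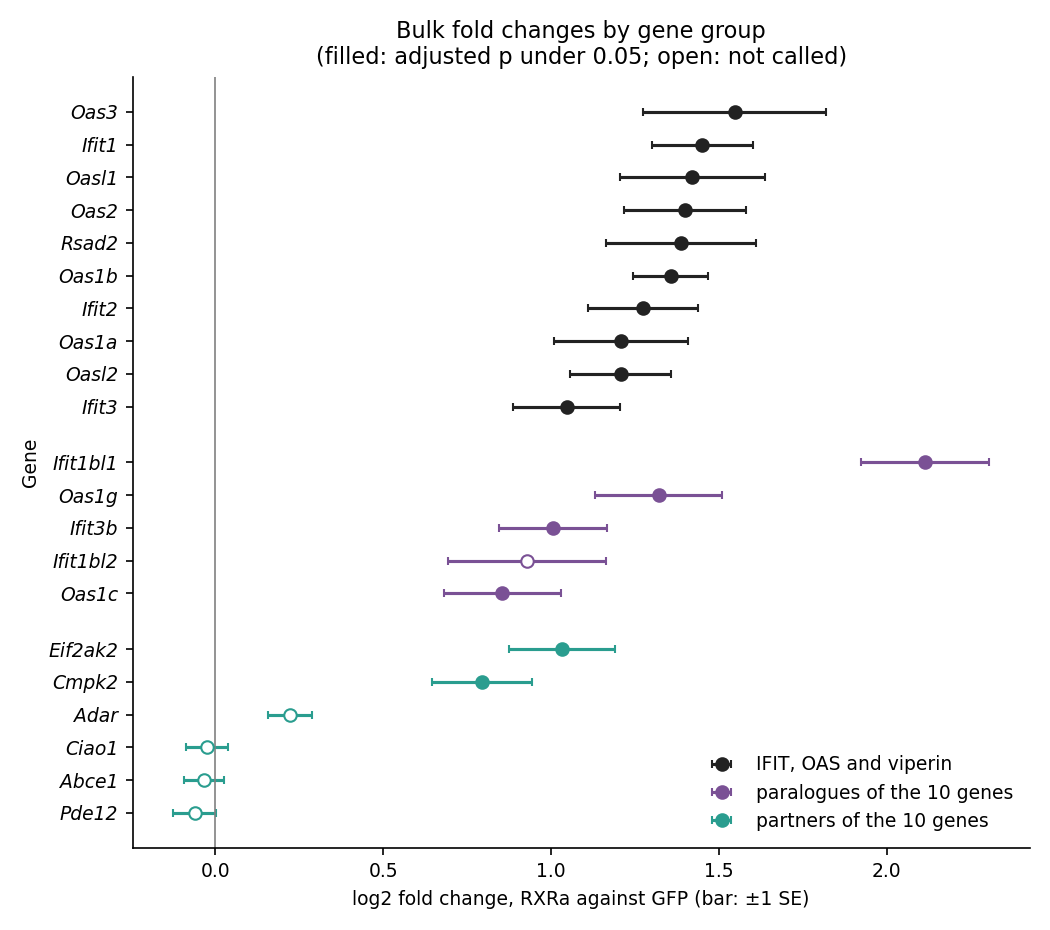
Log2 fold change in bulk, RXRa against GFP, with ±1 SE, for the 10 genes, their paralogues that passed the filter and 6 partners (filled points are called at an adjusted p under 0.05). The 10 genes lie between 1.05 and 1.55, Ifit1bl1 lies beyond them at 2.11, and Pde12, Abce1 and Ciao1 lie near 0.

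Genes upstream of the 10 and alongside them were called in part. Of 18 interferon ligands, receptors and transcription factors, 14 passed the filter and 6 rose, from Irf7 (1.20) and Stat2 (1.10) down to Ifngr2 (0.27). No ligand was called: Ifnb1, Ifna4, Ifna2 and Ifnl3 did not pass the filter, and Ifng had a log2 fold change of 1.93 that did not pass the test (SE 0.53, edgeR adjusted p = 0.0791). Of 11 RNA and DNA sensors 6 rose, with the largest change in Tlr9 (1.32) and the smallest of the called in Tlr3 (0.73). Of 20 other interferon-induced genes 20 rose, between 0.74 (Lgals3bp) and 1.65 (Mx1). The medians of these lists were 0.37, 0.82 and 1.12 on the log2 scale.

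Markers of blood-derived cells moved with the same contrast. Of 6 NK and cytotoxic markers 5 rose, and their summed level was 14.97 to 18.7 CPM with GFP and 31.2 to 80.5 CPM with RXRa. Of 5 monocyte and neutrophil markers 4 passed the filter and 2 rose, Ly6c2 and Plac8, with sums of 32.1 to 73.9 and 116 to 224 CPM. The sums come mostly from these genes and Ccr2, while the neutrophil gene S100a9 had a mean of 1.12 CPM with GFP and 0.367 CPM with RXRa and was not called (log2 fold change -1.55, edgeR adjusted p = 0.118), and S100a8, at 0.613 and 0.181 CPM, did not pass the filter. Of 7 T cell markers 4 rose (Cd3d, Cd3e, Cd3g and Cd8a, by 1.67 to 2.22 on the log2 scale), and Trac (1.83) and Cd8b1 (1.52) did not pass. Their summed levels, 45.5 to 60.5 and 48.2 to 88.7 CPM, overlapped and were mostly Cd4, at a mean of 46.1 CPM with GFP and 39.6 CPM with RXRa. Of 7 microglial markers 0 were called by edgeR, and sums overlapped at 672 to 990 and 734 to 1034 CPM. None of these markers was at 0 in all libraries of a group. Their part in the rise of the 10 genes was not tested, and in bulk tissue more cells of a type and more RNA per cell cannot be told apart.

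In the sorted nuclei the picture differed: none of the 10 was called higher with RXRa in any comparison. Median levels of most of the 10 were within the range of genes that bulk tissue did not detect. The yardstick is 1576 autosomal protein-coding genes of at least 5000 bp that bulk libraries held no count of, named silent genes here. In the sorted libraries their counts followed the length of the gene body (Pearson r 0.75 across genes on a log2 scale, where genes are not independent) and not the length of their exons (0.06). Each library's median over silent genes was 0.380 to 0.565 CPM per kb of gene body, and 10% to 90% of silent genes lay between 0.516 and 1.47 times that median.

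Against this yardstick, the median level of the 10 genes over 35 sorted libraries was 0.83 times the silent-gene median for Oas1a, 1.03 for Oas3, 1.13 for Oas1b, 1.28 for Oas2, 1.32 for Oasl2, 1.35 for Rsad2, 1.40 for Ifit1, 1.499 for Oasl1, 1.81 for Ifit2 and 2.21 for Ifit3. For 7 of them that median was within the band of silent genes. Ifit2 and Ifit3 stood at median percentiles of 97.7 and 99.2 among silent genes. Oas1d, Oas1e and Oas1f, paralogues nearly absent from bulk, were at 1.24, 0.39 and 1.42 times the silent-gene median. Partners that bulk tissue did detect were at similar ratios, such as 1.005 for Pde12, 1.55 for Eif2ak2 and 2.26 for Ciao1. In this range the ratio thus does not separate genes detected in bulk from silent genes. Drd1, by comparison, was at 14.2 times over D1 and D2 libraries together. Its group medians ran from 4.875 (D2 female EGFP) to 27.55 (D1 female RXRa), and its lowest library was at 2.83. Over the same libraries Ppp1r1b was at 6.59 times and Drd2 at 3.505 times.

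The widest range of the 10 belonged to Ifit1, from 0.81 to 3.23 times the silent-gene median. Whether reads at the level of silent genes come from transcripts of these genes was not tested. The order per kb of gene body differs from the bulk order per kb of exon, where Ifit1 and Oasl2 were the second and the third, and the 2 scales are not comparable.

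**Figure D3:**
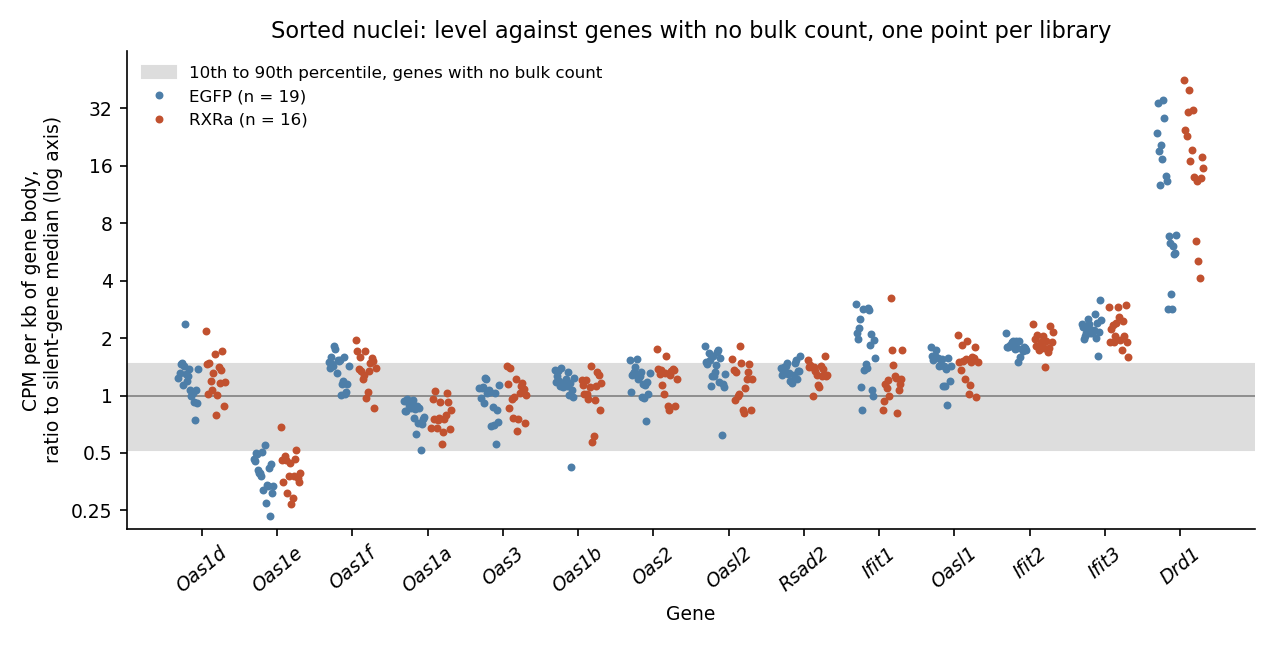
CPM per kb of gene body in sorted nuclei divided by the same library's median over silent genes (log axis), one point per library, 19 with EGFP and 16 with RXRa, with Oas1d, Oas1e, Oas1f and Drd1 for comparison. The grey band is the 10th to 90th percentile of silent genes, 0.516 to 1.47, which holds the median of 7 of the 10 genes, while Ifit3 (2.21), Ifit2 (1.81) and Oasl1 (1.499) have theirs above it.

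In D2 nuclei over both sexes, 3 of the 10 genes were lower with RXRa: Ifit1, Oasl2 and Rsad2. The background was large here, with 7.14% of 43902 genes called lower and 14.9% called higher by edgeR. Ifit1 stood at -0.81 on the log2 scale (SE 0.23, edgeR adjusted p = 0.0181). For Oasl2 the value was -0.47 with SE 0.14 (edgeR adjusted p = 0.0198). Rsad2 had the smallest change of these genes, -0.25 with SE 0.09 (edgeR adjusted p = 0.0331). Oas1b had -0.34 and did not pass (edgeR adjusted p = 0.0503). All 10 log2 fold changes were below 0, with a median of -0.20 beside -0.04 over all genes tested.

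These D2 calls did not hold under every setting. Without D2 female RXRa library 4, 0 of the 10 genes and 0 of the whole table were called (17 libraries were left out singly). The count was 1 of the 10 without D2 male RXRa library 5, where 1.09% of all genes were called lower, and 5 without D2 male EGFP library 2, where 5.40% were. Scaled by library totals alone, 6 were called lower, as were 21.3% of all genes, while the median of all genes moved from -0.04 to -0.20 and the share of calls that were higher from 67.6% to 18.1%. With the share of a library's counts on genes absent from bulk as a covariate, 0 of the 10 were called. Of all genes tested, 0% were called as well. At an unadjusted edgeR p under 0.05 there were 2 of the 10 (Ifit1 and Oasl2), against 4.20% of all genes. Ifit1 was then at -0.79 (edgeR adjusted p = 0.979), Oasl2 at -0.37, Rsad2 at -0.09 and the median of the 10 at -0.08, with Oas3 above 0. That share reached lower values with RXRa, with overlap: it was 6.06% to 6.23% in D2 female EGFP and 3.81% to 6.16% in D2 female RXRa libraries. The summed D2 markers reached higher values with RXRa, also with overlap, at 867 to 1310 CPM with EGFP and 1091 to 2683 CPM with RXRa in females. The part of the share or of the markers in the calls was not tested beyond that covariate. Relative to the silent-gene median, the difference between RXRa and EGFP in mean log2 level was -0.54 for Ifit1, -0.25 for Oasl2 and -0.04 for Rsad2. On that scale 5 of the 10 were above 0, up to 0.16 for Oas3, and the median of the 10 was 0.0036, so the common direction was not kept.

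Of the partners and paralogues in D2, Eif2ak2 (-0.21) and Ifit1bl1 (-0.23) were lower, and Adar (0.48), Ciao1 (0.37) and Abce1 (0.31) were higher, each called by edgeR. Of the 20 other interferon-induced genes, 7 were lower and 1 (Trim30a) was higher. Eif2ak2 and Ifit1bl1 had risen in bulk, in other animals and another vector, and the 2 tables were not tested against each other.

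In D1 nuclei over both sexes, 0 of the 10 genes were called, and 0% of all genes tested (edgeR; 3518 genes or 8.01%, 3 of the 10 among them, at an unadjusted p under 0.05). DESeq2 and limma voom also called 0 of the 10. All 10 log2 fold changes were below 0, between -0.60 (Ifit1) and -0.06 (Ifit3), with a median of -0.11 beside -0.01 over all genes tested. With the covariate Ifit3 was at 0.04 and the median at -0.08. Relative to the silent-gene median, 5 of the 10 were above 0, and the median of the 10 was -0.0034. D1 and D2 nuclei are separate libraries, and whether they come from separate animals is not given in the sources used here. The difference between their RXRa effects was tested as an interaction that takes the libraries as independent. Of the 10 genes 0 passed by edgeR, DESeq2 or limma voom. At an unadjusted edgeR p under 0.05 there were 0 of the 10, against 8.22% of all genes. For Ifit1 the effect in D2 less that in D1 was -0.21, with a 95% interval from -0.83 to 0.41 on the log2 scale.

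Ifit1 had the lowest log2 fold change of the 10 in females of either population. In D1 females it was at 12.96, 9.49, 9.50, 11 and 11.5 CPM in the 5 EGFP libraries and at 2.90, 4.16, 5.19 and 4.14 CPM in the 4 RXRa libraries. The groups did not overlap, and the raw counts were 231 to 336 against 42 to 113. The log2 fold change was -1.39 (SE 0.31, unadjusted p = 8.75e-05), but over 43902 genes it did not pass (edgeR adjusted p = 0.721). In a fit of these 9 libraries alone it was the single gene called (edgeR adjusted p = 0.00154), while the adjusted p over the other alternatives ranged from 0.236 to 1.0.

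In D2 females Ifit1 was at 6.50, 13.9, 13.4 and 9.55 CPM with EGFP and 6.47, 6.18, 4.37 and 3.25 CPM with RXRa. The highest RXRa library lay just under the lowest EGFP library, and the log2 fold change of -1.12 did not pass (SE 0.33, edgeR adjusted p = 0.0953). Divided by the silent-gene median, Ifit1 was 1.99 to 3.01 in D1 female EGFP and 0.84 to 1.15 in D1 female RXRa libraries. The same ratio was 1.40 to 2.86 and 0.81 to 1.44 in D2 females.

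In D1 males Ifit1 was at 5.18, 3.68, 13.3, 6.71 and 7.17 CPM with EGFP and 5.14, 4.91, 15.8 and 7.16 CPM with RXRa. One library of each vector, EGFP 3 and RXRa 3, stood above the rest, and the log2 fold change of 0.20 (SE 0.30) turned to -0.35 without the latter. In D2 males it was at 10.3, 5.36, 4.80, 9.82 and 6.88 CPM with EGFP and 5.00, 4.61, 5.35 and 6.35 CPM with RXRa, and the groups overlapped (log2 fold change -0.50, SE 0.33).

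Oasl2 followed Ifit1 in females. In D1 females it was at 13.2, 11.2, 11.7, 13.7 and 11.8 CPM with EGFP and 9.05, 10.2, 7.18 and 8.42 CPM with RXRa (log2 fold change -0.50, SE 0.18). In D2 females it was at 11.2, 13.8, 14.0 and 10.2 CPM with EGFP and 6.32, 6.67, 6.44 and 8.16 CPM with RXRa (-0.82, SE 0.20). Neither pair of groups overlapped, and neither passed over all genes (edgeR adjusted p = 0.786 in D1 and 0.0953 in D2). In males the groups overlapped, with log2 fold changes of -0.03 in D1 and -0.12 in D2.

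Oas1b and Rsad2 were also lower without overlap in D2 females, as was Oas1b in D1 females. In D1 females Oas1b was at 6.59 to 8.29 CPM with EGFP and 5.25 to 6.37 CPM with RXRa. The log2 fold change there was -0.34 (SE 0.16, edgeR adjusted p = 0.786). Oas1b in D2 females was at 7.18, 6.89, 7.999 and 6.57 CPM with EGFP and 3.24, 3.78, 4.20 and 5.66 CPM with RXRa, without overlap (log2 fold change -0.74, SE 0.18, edgeR adjusted p = 0.0953). Rsad2 in D2 females was at 8.25, 8.52, 9.23 and 11.5 CPM with EGFP and 7.63, 8.11, 7.58 and 7.56 CPM with RXRa (-0.28, SE 0.12). In D2 males Rsad2 was at 9.16 to 11.2 CPM with EGFP and 7.01 to 9.70 CPM with RXRa, so that 2 of the 4 RXRa libraries were above the lowest EGFP library.

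**Figure D4:**
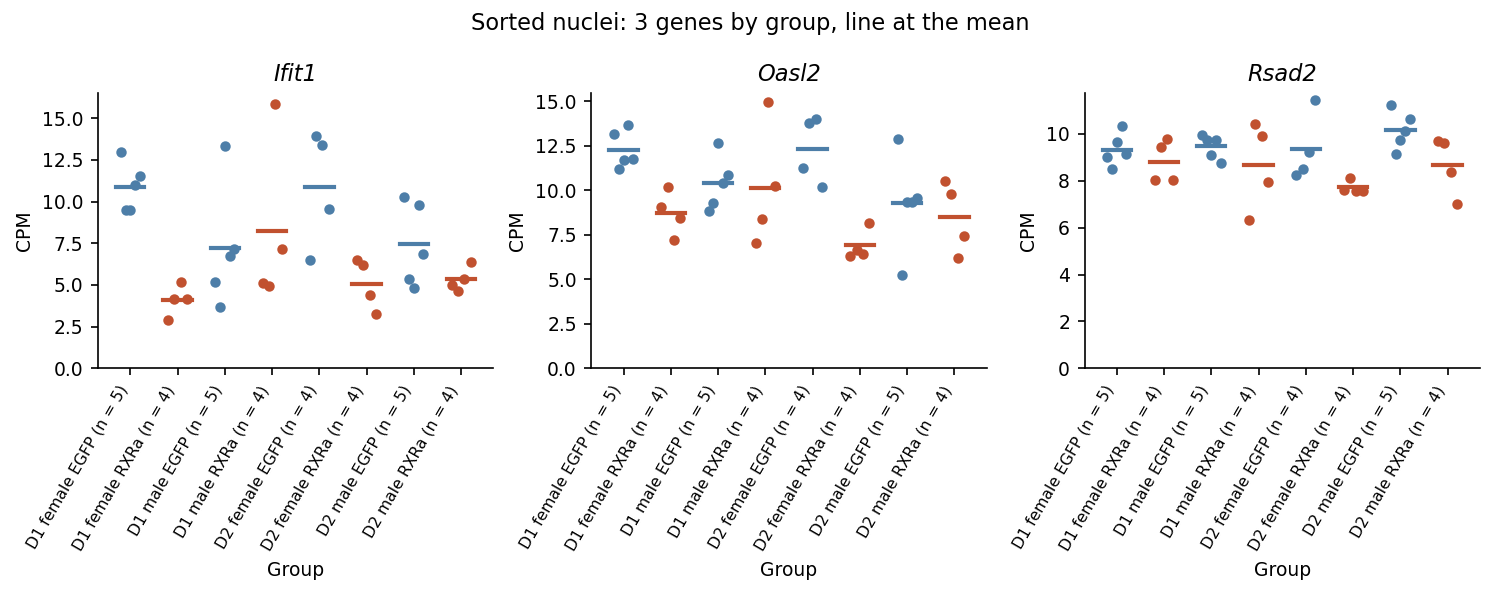
CPM of Ifit1, Oasl2 and Rsad2 in the 8 sorted groups (axes from 0), one point per library and a line at the mean. Ifit1 and Oasl2 lie lower with RXRa without overlap in D1 and D2 females, and overlap in males, where D1 male RXRa library 3 (15.8 CPM of Ifit1) is the highest.

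Within one sex, 0 of the 10 genes were called by edgeR in each of the 4 comparisons, as was 0% of all genes. At an unadjusted p under 0.05 there were 3 in D1 females, where 6.28% of all genes tested passed it, and 6 in D2 females, where 25.2% did. In males there were 0, against 3.02% of all genes in D1 and 19.7% in D2. DESeq2 called 2 lower in D2 females, Ifit1 and Oasl2, with 1.08% of all genes called lower and 7.29% higher. It called 0 of the 10 in the other 3 comparisons, and limma voom called 0 in all 4. Without D2 female RXRa library 3, edgeR called 3 of the 10 lower in D2 females and 6699 genes in all, with 4.82% of the table lower. Lower without overlap were 4 of the 10 in D1 females (Ifit1, Oas1b, Oasl1, Oasl2), against 1.43% of all genes tested. In D2 females there were also 4 (Ifit1, Oas1b, Oasl2, Rsad2), against 3.75%, and in males 0, against 0.854% in D1 and 1.44% in D2.

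The difference between the sexes was tested in each population, and 0 of the 10 passed in either (edgeR, with 0% of all genes called). At an unadjusted p under 0.05 there was 1 in D1, against 2.08% of all genes tested, and 3 in D2, against 3.02%. DESeq2 and limma voom called 0 as well. For Ifit1 in D1 the effect in females less that in males was -1.59 on the log2 scale (95% interval -2.43 to -0.75, edgeR adjusted p = 1.0). In D2 it was -0.62 (-1.53 to 0.30), and for Oas1b in D2 -0.80 (-1.29 to -0.30), neither of which passed. In D2 the estimate was further from 0 for Oas1b than for Ifit1, but the intervals overlap and the genes were not tested against each other.

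The remaining genes overlapped between vectors in nearly all sorted comparisons. Ifit2, the most counted of the 10, was at 22.6 to 25.9 CPM in D1 female EGFP and 22.2 to 24.97 CPM in D1 female RXRa libraries. In D2 females it was at 20.4 to 25.9 and 18.9 to 22.3 CPM, which overlap. For Ifit3, Oas1a, Oas2 and Oas3 the EGFP and RXRa libraries overlapped in each of the 4 comparisons, with group means of 5.08 to 6.51, 3.54 to 5.13, 9.59 to 13.5 and 9.89 to 14.2 CPM. Oasl1 overlapped in all but D1 females, where it was at 11.6 to 12.6 CPM with EGFP and 9.87 to 11.5 CPM with RXRa.

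**Figure D5:**
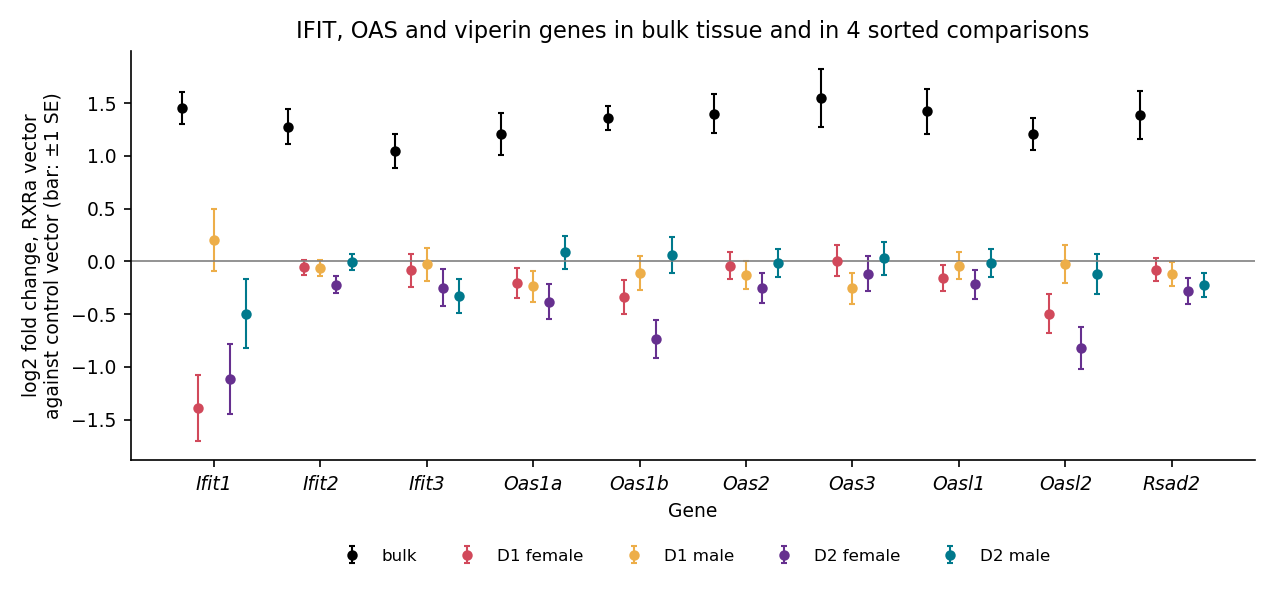
Log2 fold change with ±1 SE of the 10 genes in bulk (RXRa against GFP) and in the 4 sorted comparisons (RXRa against EGFP). The bulk values lie between 1.05 and 1.55, and the lowest sorted values are those of Ifit1 in D1 and D2 females, -1.39 and -1.12.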

How the data were processed

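RNA-seq libraries of bulk nucleus accumbens (poly(A) RNA) and of sorted D1 and D2 nuclei (ribosomal-RNA-depleted total RNA) were analysed from raw counts per gene, which the authors deposited without normalization. The submitters' processing notes name FastQC, Trimmomatic, HISAT2, Picard, featureCounts, Subread and the build GRCm38. Versions, use of strand and treatment of intron reads are not given in the sources used here. Replicates are libraries that the labels name as separate samples. In 1 sorted library the title names another vector than the label does, and it entered no comparison.

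Counts were tested with edgeR 4.0.16 (R 4.3.3; filterByExpr, TMM scaling, quasi-likelihood test, Benjamini-Hochberg over all genes tested), with bulk as 2 groups and 35 sorted libraries as 8 groups in a common fit. Both sexes had the same weight in contrasts across them, and 10 contrasts were tested. Genes were called at an adjusted p under 0.05. CPM used TMM effective library sizes. The 2 vector entries were left out of totals and tests. The 10 genes, the gene and marker lists, the silent-gene yardstick and the alternatives were chosen with earlier results of these data known. Beside the 10 genes, 6 partners and all paralogues that passed the filter were named (1 further partner is not reported here), the called genes of each other list with the largest and smallest change in bulk, and the 5 genes most alike over the bulk libraries; Stat2 and Trim30a were named after their values were seen. Alternatives were RLE size factors, library totals, other filters, DESeq2 1.42.0, limma 3.58.1, the replicate number as a block, a covariate, only the groups of a contrast, and each library left out. The fits were tested on simulated data. In the 72 replicate pairs, chi-square divided by its degrees of freedom was 1.79 to 63.6 (at most 32.1 without D1 male EGFP library 2), above sampling noise in each. Counting error alone limits a level to what the totals allow.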

Additional observations from a re-analysis of the deposited data

Results flagged for a closer look

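In all, 6 values of the 10 genes stood apart from the other libraries of their own group by Dixon's test at the 95% level, among 100 combinations of gene and group of 4 or 5 libraries, where chance gives about 5%. Ifit2 was at 22.3 CPM in D2 female RXRa library 2, the highest of its group, and at 21.4 CPM in D2 male EGFP library 5, the lowest of its group. Oas1a was lowest in D1 male RXRa library 1, at 3.53 CPM. Oas1b was lowest in D2 male EGFP library 2, at 2.68 CPM. Oas2 was lowest in D1 female EGFP library 2, at 9.94 CPM. Rsad2 was highest in D2 female RXRa library 3, at 8.11 CPM. None of the 6 lies in bulk, and none is Ifit1 or Oasl2.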

How the results depend on the processing

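Of the 10 genes in bulk, 10 were called under RLE size factors, library totals, 2 other filters, DESeq2 and limma voom, and 1 to 10 with a library left out. With the replicate block 0 of the 10 were called, at adjusted p from 0.0543 to 0.0859, and 0 genes of the whole table. Same-numbered bulk libraries had correlations from -0.53 to 0.49, and in no comparison did all pairs exceed 0.1. In bulk, 1 of 4 RXRa libraries correlated best with the GFP library of its own number. With so few libraries per group, these correlations cannot decide whether the numbers pair the libraries. The block changed no other count of the 10. In D2 over both sexes, 6 of the 10 were called with library totals, 0 with the covariate, 1 with only the D2 groups and 0 to 5 with a library left out. In females, only the 2 D1 groups gave 1, DESeq2 gave 2 in D2, and leaving out a D2 library gave 0 to 3. The other counts of the 10 kept their values within 1.5 times. Counts over all genes moved more: in bulk 1619 by DESeq2 and 9 to 1016 with a library left out; in D2 over both sexes 0 with the covariate, 2547 with only the D2 groups and 0 to 14766 with a library left out. In D2 females there were 3672 by DESeq2 and up to 6699 without a library, in D2 males 23 by DESeq2, 1 by limma voom and up to 5986. In D1 females there were 4 by DESeq2, 1 with the block, 1 with only its groups and up to 4 without a library. The sex difference in D1 gave 2 by DESeq2, 2 with the covariate and up to 3.

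Direction reversed for small values. Scaled by library totals, Abce1 and Ciao1 in bulk were at 0.0063 and 0.013. With the covariate, Oas3 in D2 was at 0.019, Ifit3 in D1 over both sexes at 0.0367 and Oasl2 in D1 males at 0.025. Leaving out a library gave ranges that cross 0 for Abce1 in bulk (-0.074 to 0.0087), Oas3 in D2 (-0.13 to 0.011), Ifit1 in D1 males (-0.35 to 0.53), Oasl2 in D1 males (-0.28 to 0.11) and in D2 males (-0.26 to 0.036), and the Ifit1 difference between D2 and D1 (-0.37 to 0.065). The cause was not tested.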

Other observations

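A sorted library titled as RXRa and labelled with the EGFP vector was placed in no group. Its total was 15630501 counts. It held 81 counts of Ifit1 (5.18 CPM of its total) and 147 of Oasl2 (9.41 CPM). Per kb of gene body these were 1.12 and 1.22 times its silent-gene median, and the 10 genes ranged from 0.94 (Oas1a) to 2.05 (Ifit3) times.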
